A study of Mus musculus with 12 samples.

Results

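The genes described here are 46 DNA repair and damage checkpoint genes, chosen by symbol, among the 35855 genes to which the deposited transcripts were summed. They were measured by RNA sequencing in mouse splenic T cells labelled as sorted CD8 T cells. The list held 8 damage checkpoint genes, 12 of homologous recombination and the Fanconi anemia pathway, 5 of non-homologous end joining, 8 of base excision and single-strand break repair, 9 of nucleotide excision repair, 2 of mismatch repair and 2 subunits of the single-strand binding protein RPA. All 46 were found and all 46 passed the filter on low counts in every comparison. The samples formed 4 groups of 3 libraries. Donor cells came from C57BL/6 mice that were either wild type (WT) or carried floxed Tcf7 alleles with a CD4 promoter-driven Cre (labelled TCF-7 cKO, called TCF-1 cKO here). Tcf7 encodes the transcription factor TCF-1, and this Cre deletes it in all T cells from the double-positive stage of the thymus, so that cells of the CD4 lineage in these donors lack it too. Each genotype was taken before transplant (pre-transplant) and at day 7 after transfer with WT bone marrow into irradiated allogeneic BALB/c mice (post-transplant), so that recipients of both genotypes had been irradiated. The study's methods give a lower age limit for the female recipients and describe donors as matched to them in age where possible. The age behind each library and whether replicates came from separate animals were not given in the sources used here, so p-values measure the spread between these libraries, which may be technical.

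DNA damage is read by sensor kinases and repaired by routes that fit the lesion. ATM responds to double-strand breaks and ATR to single-stranded DNA coated by RPA; they activate the kinases CHK2 and CHK1, and p53 with its ubiquitin ligase MDM2 couples the signal to cell-cycle arrest or death. Breaks are rejoined by end joining (Ku70, Ku80, DNA-PKcs, XRCC4 and ligase 4) or copied from a sister chromatid by homologous recombination (BRCA1, BRCA2, PALB2), single damaged bases are cut out by base excision repair, bulky lesions by nucleotide excision repair, and replication errors are removed by mismatch repair. In T cells, end joining completes antigen receptor rearrangement in the thymus, and dividing T cells induce many of these genes together with the replication machinery.

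The libraries differed in ways that bear on each value. Total estimated counts were 4520270 to 9577076 in the TCF-1 cKO pre-transplant libraries, 18978963 to 28884454 in WT pre-transplant, 18398553 to 24554695 in TCF-1 cKO post-transplant and 18184814 to 32657005 in WT post-transplant libraries. The TMM scaling factors, which correct for differences in library composition, were 1.55 to 2.31 in TCF-1 cKO and 1.23 to 1.51 in WT pre-transplant. Post-transplant they were 0.456 to 0.695. Fold changes between stages, and between genotypes pre-transplant, therefore depend on this scaling. The pre-transplant libraries held markers of other cells: the summed level of 6 B cell genes was 4320 to 13700 CPM (estimated counts scaled to a common library total, with TMM) and that of 7 T cell genes, among them Cd8a, 383 to 1390 CPM. Post-transplant these sums were 343 to 1030 and 7230 to 11500, and 5 erythroid genes went from 975 to 7990 down to 157 to 953. Fewer cells of a type and less RNA per cell cannot be told apart in such bulk samples. The sum over 12 proliferation genes was 249 to 474 CPM pre-transplant and 4920 to 7490 post-transplant. Mki67, which marks cycling cells, ranged from 12.3 to 47.5 CPM pre-transplant. Post-transplant its range was 47 to 249 CPM for WT against 317 to 580 CPM for TCF-1 cKO. The 12 proliferation genes did not all follow Mki67. At an adjusted p below 0.1 (edgeR), 3 of the 12 were lower in TCF-1 cKO post-transplant and 0 higher, beside 15.4% and 2.51% of all genes. Their median log2 fold change (TCF-1 cKO over WT) was 0.90. Cd8a levels in pre-transplant libraries were 87.2 to 154 CPM for WT against 26.5 to 30.9 CPM for TCF-1 cKO, and 478 to 906 CPM in the post-transplant ones. Tcf7 itself was at 26.3, 34.3 and 62.9 CPM in TCF-1 cKO pre-transplant against 117, 76.1 and 166 in WT, and at 14.6, 13.7 and 14.1 in TCF-1 cKO post-transplant against 26.9, 26.5 and 10.7 in WT. The third library labelled WT post-transplant therefore lay below all TCF-1 cKO libraries, and neither genotype difference in Tcf7 passed the test (adjusted p = 0.223 pre-transplant and 0.308 post-transplant, edgeR). The source field of the second TCF-1 cKO post-transplant library named CD4 T cells while its title named CD8, and its Cd4 level was 2.04 CPM against 1.25 to 7 CPM in the other post-transplant libraries.

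Levels were compared between genes in TPM, an abundance scaled for transcript length and library total, over protein-coding transcripts. Averaged over 12 libraries, Rpa2 was at 115 TPM, Apex1 (the abasic site endonuclease) at 61.1, Trp53 at 59.3, Rpa1 at 45.9 and Ddb1 (the DNA damage-binding adaptor of a ubiquitin ligase) at 36. At the other end stood Brca2 at 0.386, Bard1 (the partner of BRCA1) at 0.591 and Brca1 at 0.906 TPM. The map of levels by library shows that replicates differed widely for several genes. Chek1 and Fancd2 were at 0.39 and 0.234 CPM in the second WT post-transplant library and at 25.6 and 25.6 CPM in the third.

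**Figure D1:**
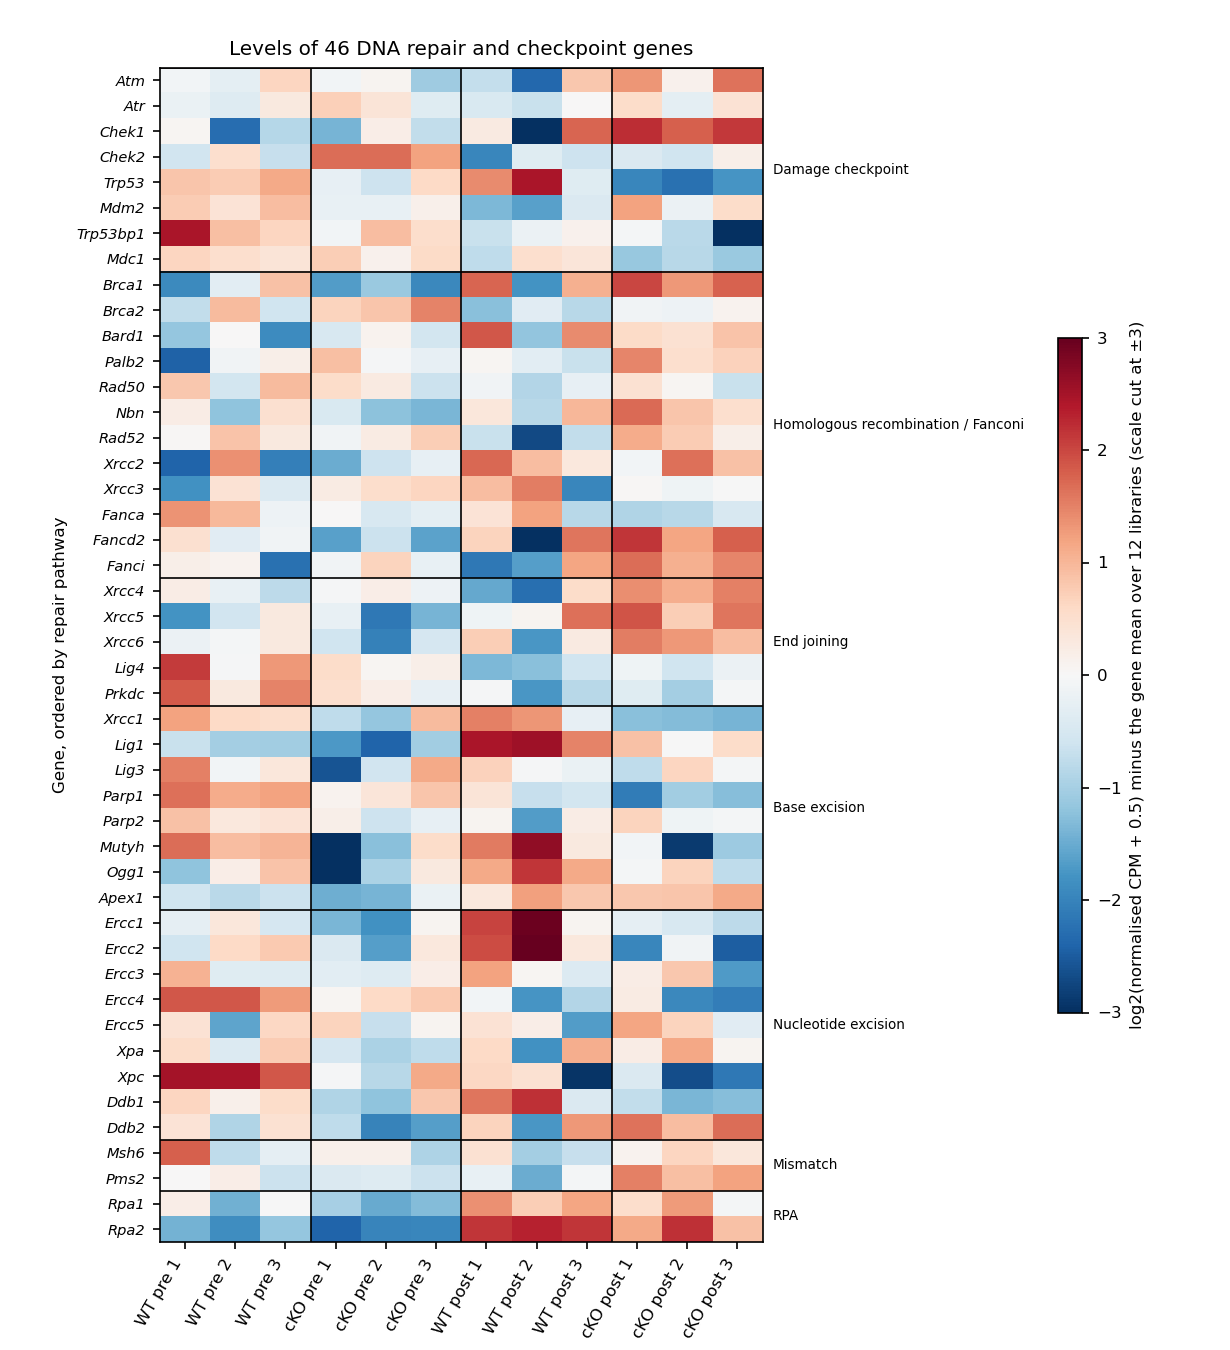
Each row is one of the 46 genes, ordered by repair pathway, and each column one of the 12 libraries; colour gives log2(normalised CPM + 0.5) minus the mean of the gene over the 12 libraries, cut at plus and minus 3. Rpa2 and Lig1 are high in all 6 post-transplant libraries, and Chek1 and Fancd2 are low in the second WT post-transplant library beside higher replicates.

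For 5 genes fewer than 50% of the estimated counts of the gene belonged to transcripts annotated as protein-coding, and for 2 fewer than 10%. Chek2, which encodes the kinase CHK2, had 4.05% coding counts: 94.4% of its counts sat on Chek2-202, a non-coding processed transcript. Brca2, the loader of the recombinase in homologous recombination, had 6.6% coding counts, with 46.7% on the retained-intron transcript Brca2-211 (688 bases, chr5:150556479-150557250, GRCm38). Some leading transcripts shared 31-base words, on either strand, with annotated transcripts of other genes, so that their reads may be shared. The share of such words had a median of 0.397% over the 46 genes and was 69.6% in the coding Apex1-201, 36.3% in Chek2-202 and 33.7% in Brca2-211. It was 29.8% in Lig3-211, 24.4% in Ddb2-202, 21% in Trp53-203 and 18.6% in Ercc2-201. Retained-intron transcripts as a class took 9.04 to 12.7% of all counts in TCF-1 cKO pre-transplant, 6.17 to 8.38% in WT pre-transplant and 2.41 to 3.21% in post-transplant libraries. Pms2 (27.6%), Trp53bp1 (44.5%) and Palb2 (46.4%) were the other genes below 50%.

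**Figure D2:**
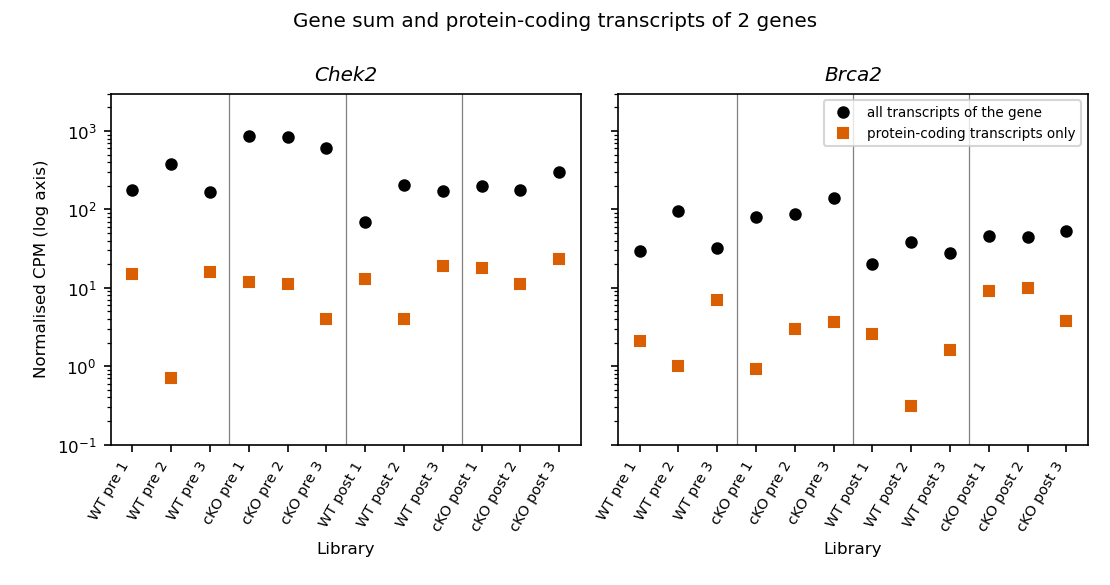
Normalised CPM (log axis) of Chek2 and Brca2 in the 12 libraries, over all transcripts of the gene (black circles) and over protein-coding transcripts alone (orange squares). The gene sums of Chek2, between 68.5 and 855 CPM, lie far above its coding transcripts, between 0.711 and 23.1 CPM.

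The comparison of TCF-1 cKO with WT pre-transplant asked whether donor cells of the 2 genotypes already differed in repair genes. None of the 46 genes passed the false discovery rate (FDR) of 0.1 (edgeR quasi-likelihood F test, p adjusted by Benjamini-Hochberg), where 0.0373% of 18757 genes tested did. At an unadjusted p below 0.05 there were 5 of 46 genes, beside 17.7% of all genes, and the DESeq2 Wald test called 2 genes (7.74% of all), limma-voom none (0.0107%) and limma-voom with quality weights 13 (40.3%). The median log2 fold change (TCF-1 cKO over WT) was -0.56 for the 46 genes and 0.05 for all genes tested, with 34 of 46 below 0. All 8 base excision genes (median -0.64), 8 of 9 nucleotide excision genes (median -0.64) and 4 of 5 end joining genes (median -0.76) lay below 0, while homologous recombination genes were split 6 and 6 (median -0.02). With libraries scaled to their totals instead of by TMM, 7 base excision, 7 nucleotide excision and 3 end joining genes lay below 0. The T cell markers summed to 1130 to 1390 CPM in the WT libraries and to 383 to 611 CPM in those of TCF-1 cKO, and their part in these values was not tested.

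Chek2 had the smallest p of the checkpoint genes, with 855, 849 and 615 CPM for TCF-1 cKO against 178, 378 and 165 CPM for WT. The groups did not overlap, as for 13 of the 46 genes and 30.3% of all genes. Its log2 fold change was 1.93 (SE 0.48, adjusted p = 0.1995). Over protein-coding transcripts the log2 difference of Chek2 was 0.44 (adjusted p = 0.873). Xpc, the sensor of helix distortion in nucleotide excision repair, was at 8.44, 4.63 and 19.5 CPM in TCF-1 cKO against 51, 50.1 and 32.8 CPM in WT. All 3 TCF-1 cKO values lay below all WT values, with a log2 fold change of -1.88 (SE 0.54, adjusted p = 0.1995). Mutyh, a glycosylase that removes adenine opposite oxidised guanine, was at 0.703, 4.92 and 18.5 CPM against 40.5, 24.1 and 25.8 CPM (log2 fold change -1.78, SE 0.81, adjusted p = 0.280). Its 3 TCF-1 cKO values spread more than the gap to the lowest WT library.

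Brca2 was at 78.9, 87.5 and 140 CPM against 29.3, 95.5 and 32.2 CPM, so the groups overlapped (log2 fold change 1.15, SE 0.52, adjusted p = 0.275). Coding transcripts of Brca2 alone gave 0.18 on the log2 scale (adjusted p = 0.960). Prkdc, the catalytic subunit of DNA-PK, was at 29.3, 23.5 and 17.2 CPM against 74.5, 25.4 and 58.1 CPM (log2 fold change -0.92, SE 0.51). Rpa1 (-0.76, SE 0.48) and Msh6 (-0.55, SE 0.67), the smallest p of their groups, overlapped between genotypes. The depth of the TCF-1 cKO libraries limits these values: 3 counts correspond to 0.313 to 0.664 CPM there, before TMM scaling, and Ogg1, the oxidised guanine glycosylase, had 2 counts in the library where it was lowest.

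Post-transplant, 7 of the 46 genes were lower in TCF-1 cKO than in WT cells and none was higher at an FDR of 0.1, where 17.9% of 16026 genes were called (15.4% lower and 2.51% higher). At an unadjusted p below 0.05 there were 15 of the 46 genes and 28.1% of all genes; the DESeq2 Wald test called 15 (28.2% of all) and limma-voom with quality weights 26 (47.4%). These 7 were Trp53, the base excision and ligation genes Xrcc1, Lig1 and Mutyh, and the nucleotide excision genes Ercc1, Ercc2 and Ddb1. In the edgeR test, no gene of homologous recombination, end joining, mismatch repair or RPA among the 46 was called. Other tests did call such genes. Limma-voom called 10 of the 46 (17% of all genes), with Xrcc4 and Pms2 as the 2 higher ones (3.63% of all genes). The DESeq2 Wald test called 4 higher (6.66% of all) and limma-voom with quality weights 9 (20.3%). In edgeR the median log2 fold change was -0.01 over the 46 genes and 0.15 over all genes, with 22 genes above 0. By pathway it was -1.64 in base excision, -0.66 in nucleotide excision, -0.79 in RPA, 0.38 in checkpoint, 0.49 in homologous recombination, 0.74 in end joining and 0.92 in mismatch repair genes.

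Trp53, which encodes p53, was at 205, 424 and 59.2 CPM in the WT libraries, and the TCF-1 cKO libraries held 19.4, 15.9 and 22.1 CPM. The groups did not overlap, but the WT values spread widely, and the third library labelled WT was the closest to TCF-1 cKO. The log2 fold change was -3.90 (SE 0.77, adjusted p = 0.0448). Ddb1 was at 75.3, 48.7 and 52.2 CPM against 388, 582 and 93 CPM (log2 fold change -2.93, SE 0.71, adjusted p = 0.0459). Again the WT libraries spanned a wide range and the third sat nearest to TCF-1 cKO. Ercc1 and Ercc2 are a subunit of the nuclease that cuts 5′ of a bulky lesion and a helicase of transcription factor TFIIH. Ercc1 was at 28.7, 24.6 and 19.8 CPM against 142, 270 and 36.3 CPM (log2 fold change -2.93, SE 0.76, adjusted p = 0.0493). Ercc2 was at 1.93, 8.24 and 1.18 CPM against 35.8, 88.2 and 11.2 CPM (log2 fold change -3.81, SE 1.06, adjusted p = 0.0578).

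Among base excision genes, Xrcc1, a scaffold for single-strand break repair, was at 17.7, 16.9 and 16 CPM against 122, 107 and 35.9 CPM (log2 fold change -2.71, SE 0.62, adjusted p = 0.0448). The TCF-1 cKO libraries agreed closely, and the WT values differed by over 3 times. Lig1, the ligase that also seals Okazaki fragments, was at 95, 50.5 and 74.6 CPM against 279, 299 and 144 CPM (log2 fold change -2.03, SE 0.51, adjusted p = 0.0474). Mutyh was at 11.6, 1.26 and 5.51 CPM against 37.7, 81.2 and 15.3 CPM (log2 fold change -3.23, SE 0.91, adjusted p = 0.0593). In all 7 genes the 3 WT values lay above the 3 TCF-1 cKO values, as in 10 of the 46 genes and 17.3% of all genes. Counting both directions, 19 of the 46 genes and 40.8% of all genes separated. Over protein-coding transcripts 7 of the 46 genes were called, 6 lower and 1 higher, beside 15% and 1.95% of all genes. Ercc2 was no longer called there (adjusted p = 0.131), and Mdm2 was called higher.

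The genes with the smallest p in the other 4 pathways did not pass the edgeR test over all transcripts, nor did Mdm2. Mdm2, the ubiquitin ligase of p53, was at 75.1, 28.4 and 47.8 CPM in TCF-1 cKO libraries against 12.3, 10.1 and 23.6 CPM for WT, without overlap (log2 difference 1.48, SE 0.51, adjusted p = 0.1035). Xrcc4, the partner of ligase 4, was at 63.6, 51 and 68.8 CPM against 7.85, 4.6 and 35 CPM (log2 difference 1.81, SE 0.69, adjusted p = 0.132). Pms2, a mismatch repair endonuclease subunit, had a log2 difference of 1.46 (SE 0.51, adjusted p = 0.107), and 0.60 over coding transcripts. Fanca, a core subunit of the Fanconi complex, was at 15.9, 16.9 and 21.7 CPM against 40.3, 70.6 and 16.9 CPM and overlapped (-1.53, SE 0.62, adjusted p = 0.149). Rpa2 was at 350, 738 and 293 CPM against 711, 794 and 711 CPM (-0.90, SE 0.49, adjusted p = 0.266). Of 10 p53 target genes, 3 were lower in TCF-1 cKO post-transplant, beside 15.4% of all genes, and none was higher. They were the stress sensor Sesn2 (log2 fold change -3.38, adjusted p = 0.0593), Gtse1 (-1.91, adjusted p = 0.0748) and the cell-cycle inhibitor Cdkn1a (-2.39, SE 0.77, adjusted p = 0.0858). Cdkn1a was at 7.79, 6.51 and 13.7 CPM against 41.5, 66 and 9.32 CPM, so the third WT value lay within the TCF-1 cKO range. Another 4 of the 10 had differences above 0, none of them called. The GC content of transcripts, taken up below, was 53.7 to 58.7% in the 3 lower genes and 39.4 to 47.8% in these 4. One of these, the apoptosis gene Pmaip1, picked after its values were seen, was at 63.4, 45.8 and 49.7 CPM against 17, 1.79 and 29.2 CPM (1.52, SE 0.80, adjusted p = 0.252).

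**Figure D3:**
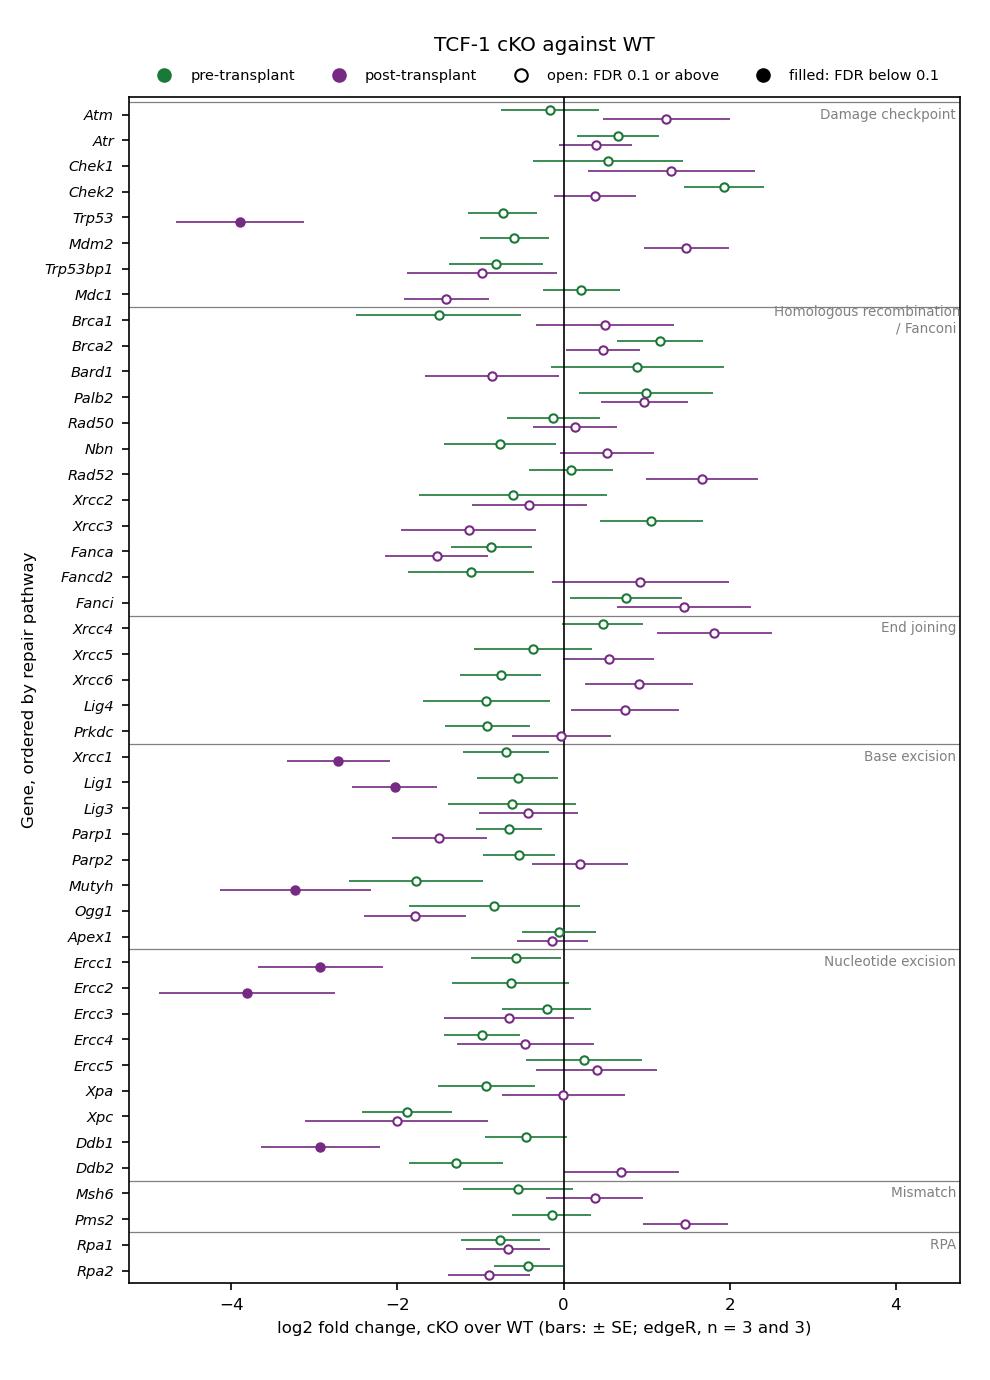
Log2 fold change of TCF-1 cKO over WT for each of the 46 genes, pre-transplant (green) and post-transplant (purple); bars are 1 SE on each side, n = 3 and 3, and filled points have an FDR below 0.1. The only filled points are 7 post-transplant genes, from Lig1 at -2.03 to Trp53 at -3.90.

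The post-transplant differences followed the GC content of the transcripts. The 7 lower genes had GC contents of 50.6 to 58.7%, against a median of 48.9% over the 46 genes. The 22 genes above the median GC content of all genes had a median log2 fold change of -1.45 and the 24 at or below it one of 0.51. Across the 46 genes, the Spearman correlation between GC content and log2 fold change was -0.752, and across 16026 genes -0.559; the points share 6 libraries, and genes are not independent replicates. Read levels rose with GC content in 2 WT libraries and fell in the others: between the 10th and 90th percentile of GC content the fitted trend changed by 1.3 and 2.3 log2 units in the first and second WT post-transplant libraries, by -0.243 in the third, and by -0.992 to -1.46 in the TCF-1 cKO libraries.

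With the GC trend of each library removed, 2 of the 46 genes were called lower, where 4.19% of all genes were called and 3.29% were lower. These were Trp53 (log2 fold change -2.69, adjusted p = 0.0904) and Ddb1 (-3.01, adjusted p = 0.0904). Xrcc1 then stood at -0.69 (adjusted p = 0.360), Ercc1 at -0.78 (adjusted p = 0.295), Ercc2 at -1.35 (adjusted p = 0.309), Lig1 at -1.17 (adjusted p = 0.138) and Mutyh at -1.39 (adjusted p = 0.271). The correlation over the 46 genes became -0.296 and that over all genes 0.059. The pathway medians drew together, from -0.83 in RPA and -0.69 in base excision to 0.43 in mismatch repair genes. A trend fitted to GC content also removes any difference in expression that itself runs with GC content, and these cannot be told apart.

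**Figure D4:**
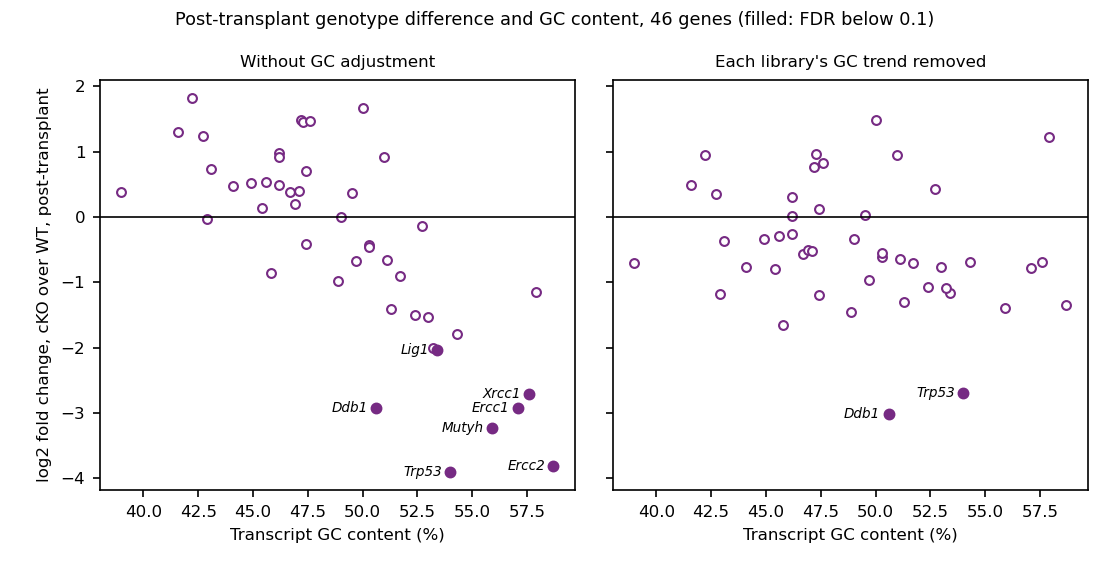
Post-transplant log2 fold change of TCF-1 cKO over WT against the GC content (%) of the transcripts of each of the 46 genes, as measured (left) and after removal of the GC trend of each library (right); filled points have an FDR below 0.1. The 7 named genes on the left lie at 50.6% GC or above, and Trp53 and Ddb1 alone are filled on the right.

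Single libraries also decided the count. Without the third library labelled WT post-transplant 17 of the 46 genes were called, 5 higher and 12 lower, with 29.1% of all genes (9.72% higher and 19.4% lower). Leaving out either of the other WT libraries, or any 1 of the TCF-1 cKO libraries (among them the one whose source field named CD4 T cells), left none of the 46 genes called and 0 to 2 genes in all, with 8 to 14 of the 46 at an unadjusted p below 0.05.

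Of 78 further repair and checkpoint genes, none was called pre-transplant (7 at an unadjusted p below 0.05, beside 17.7% of all genes). Post-transplant 14 of the 77 tested were lower and 3 higher in TCF-1 cKO, beside 15.4% and 2.51% of all genes. By pathway, 4 of 9 end joining genes (median log2 fold change -1.07), 3 of 15 nucleotide excision, 2 of 13 base excision and 1 of 15 checkpoint genes were lower. Among 21 homologous recombination and Fanconi genes 4 were lower and 3 higher (median 0.67). The smallest p was that of Fancg, a Fanconi core subunit, at 7.18, 7.14 and 4.76 CPM against 71, 99.3 and 35.8 CPM for WT (log2 fold change -3.73, SE 0.61, adjusted p = 0.0448). It was also lower with the GC trend removed (-2.88, adjusted p = 0.0904).

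The comparison of post-transplant with pre-transplant cells asked how repair genes stood in alloactivated T cells. In WT, 3 of the 46 genes were higher and 7 lower post-transplant at an FDR of 0.1, where 20% of 16790 genes were called (9.7% higher and 10.3% lower). Rpa2, the middle subunit of RPA, was at 711, 794 and 711 CPM post-transplant and 59.5, 43.4 and 70.9 CPM pre-transplant. This difference was large beside the spread of both groups (log2 fold change 3.42, SE 0.48, adjusted p = 0.00226). Lig1 was at 279, 299 and 144 CPM against 31.7, 25.1 and 24.7 CPM (log2 fold change 2.92, SE 0.54, adjusted p = 0.00689). The third gene was Ercc1 (1.97, SE 0.71, adjusted p = 0.0957), whose groups overlapped.

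The lower genes in WT came from 4 pathways. Ercc4, the catalytic partner of ERCC1, was at 10.9, 3.04 and 6.07 CPM post-transplant and 43.4, 43.1 and 28.8 CPM pre-transplant (log2 fold change -2.72, SE 0.69, adjusted p = 0.0263). Mdm2 was at 12.3, 10.1 and 23.6 CPM against 55.4, 43.1 and 61.9 CPM (-2.08, SE 0.57, adjusted p = 0.0356). Neither gene overlapped between stages, and 16.2% of all genes were lower without overlap. Over protein-coding transcripts Ercc4 stood at -3.03 and was not called (adjusted p = 0.175). In end joining, Lig4 was at 0.915, 1.01 and 1.88 CPM against 15, 3.02 and 8.44 CPM (-3.06, SE 0.89, adjusted p = 0.0461), and Prkdc at 20, 5.77 and 11.3 CPM against 74.5, 25.4 and 58.1 CPM (-2.29, SE 0.70, adjusted p = 0.0547). Parp1, the poly(ADP-ribose) polymerase that marks strand breaks, was at 96.6, 45.8 and 50.8 CPM against 233, 160 and 173 CPM (-1.76, SE 0.54, adjusted p = 0.0543). Trp53bp1, whose product 53BP1 shields broken ends, was at 8.19, 11.7 and 14.7 CPM against 74.9, 25.4 and 21.2 CPM (-2.08, SE 0.66, adjusted p = 0.0617). Its first pre-transplant library stood far above the others. Xpc fell by 2.53 on the log2 scale (SE 0.92, adjusted p = 0.0973). Of the 46, no gene of homologous recombination or mismatch repair was called in WT. Rad52 had a log2 difference of -1.86 (SE 0.77, adjusted p = 0.143) and Msh6 one of -1.17 (SE 0.79, adjusted p = 0.375).

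In TCF-1 cKO, 17 of the 46 genes were higher and 5 lower post-transplant, where 36.5% of 18535 genes were called (19.7% higher and 16.8% lower). Both RPA subunits, 5 of 12 homologous recombination genes, 3 of 5 end joining genes, 2 of 8 base excision, 2 of 9 nucleotide excision, 2 of 8 checkpoint and 1 of 2 mismatch repair genes were higher. Rpa2 was at 350, 738 and 293 CPM post-transplant and 30, 40.1 and 40.7 CPM pre-transplant (log2 fold change 3.63, SE 0.47, adjusted p = 0.000523). Brca1 was at 23.9, 14.5 and 20.2 CPM against 1.41, 2.32 and 1.09 CPM (3.60, SE 0.54, adjusted p = 0.00124). The lowest post-transplant library was well above every pre-transplant one for both genes. Fancd2, the ubiquitinated effector of the Fanconi pathway, was at 37.3, 19 and 29 CPM against 2.29, 5.02 and 2.31 CPM (3.14, SE 0.54, adjusted p = 0.00238). Chek1, the ATR effector kinase, was at 35.8, 26.7 and 33.3 CPM against 2.46, 8.4 and 4.21 CPM (2.66, SE 0.54, adjusted p = 0.00553).

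Ddb2, the damaged DNA-binding partner of DDB1, was at 92.9, 56.7 and 95 CPM against 17.2, 7.05 and 9.03 CPM in TCF-1 cKO (2.87, SE 0.47, adjusted p = 0.0020). Lig1 was at 95, 50.5 and 74.6 CPM against 15.1, 9.27 and 24.5 CPM (2.16, SE 0.47, adjusted p = 0.00775). Xrcc6, which encodes Ku70 of the break-binding Ku dimer, was at 127, 108 and 83 CPM against 28.5, 10.3 and 30.5 CPM (2.19, SE 0.47, adjusted p = 0.00775). Its partner Xrcc5 rose by 2.56 on the log2 scale (SE 0.59, adjusted p = 0.0103). In these 4 genes no post-transplant library overlapped a pre-transplant one with TMM scaling, and 23.1% of all genes were higher without overlap. On library totals Ddb2 alone of the 4 was called. The Ku dimer was joined by Xrcc4 (1.34, adjusted p = 0.0204) among the higher end joining genes. Of the recombination and Fanconi genes, Nbn, a subunit of the break-sensing complex that also holds RAD50, rose by 2.12 (adjusted p = 0.0133), Fanci, the partner of FANCD2, by 1.27 (adjusted p = 0.0487) and Xrcc2, a recombinase paralog, by 1.81 (adjusted p = 0.0646). Apex1 (1.85, adjusted p = 0.0117), the damage scaffold Xpa (1.34, adjusted p = 0.0646) and the sensor kinase Atm (1.45, adjusted p = 0.0695) completed the higher genes. Over protein-coding transcripts Fanci (0.99, adjusted p = 0.145), Xrcc2 (1.52, adjusted p = 0.200), Xpa (1.27, adjusted p = 0.118) and Atm (0.24, adjusted p = 0.810) were not called. Pms2 rose by 1.73 over all transcripts (SE 0.37, adjusted p = 0.00696) and had a difference of 0.29 over coding transcripts (adjusted p = 0.832).

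Trp53 was among the lower genes in TCF-1 cKO, at 19.4, 15.9 and 22.1 CPM post-transplant and 65.1, 49.5 and 117 CPM pre-transplant (-2.01, SE 0.43, adjusted p = 0.00717). Parp1 (-1.90, SE 0.42, adjusted p = 0.00825) and Mdc1 (-1.60, SE 0.43, adjusted p = 0.0211), the platform protein on damaged chromatin, were lower too. The remaining lower genes were those whose sums are mostly non-coding. Chek2 was at 197, 177 and 301 CPM against 855, 849 and 615 CPM (-1.79, SE 0.37, adjusted p = 0.00618), but over coding transcripts its difference was 0.69 (adjusted p = 0.418). Brca2 gave -1.11 (SE 0.37, adjusted p = 0.0480) over all transcripts and 1.36 (adjusted p = 0.209) over coding ones.

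The direction of many stage differences rested on scaling. The median log2 fold change of all genes was -0.30 in WT and -0.29 in TCF-1 cKO with TMM, and -1.25 and -1.89 when libraries were scaled to their totals. On library totals the calls among the 46 genes were 2 higher and 16 lower in WT, beside 4.27% and 24.6% of all genes, and 4 higher and 23 lower in TCF-1 cKO, beside 8.96% and 57.2%. Higher on both scales were Rpa2 and Lig1 in WT, and Rpa2, Brca1, Fancd2 and Ddb2 in TCF-1 cKO, where Lig1 stood at 0.63 on library totals (adjusted p = 0.220). Lower on both scales were Ercc4, Mdm2, Lig4, Prkdc, Parp1, Trp53bp1 and Xpc in WT, and Trp53, Parp1, Mdc1, Chek2 and Brca2 in TCF-1 cKO. Relative to the median of all genes, 25 of the 46 genes lay above it in WT on either scale, and in TCF-1 cKO 30 with TMM and 31 on library totals. A total of 13 of the 46 genes were called in none of the 5 tests, with an adjusted p of 0.102 or more: Atr, Bard1, Palb2, Rad50, Rad52, Xrcc3, Fanca, Lig3, Parp2, Ogg1, Ercc3, Ercc5 and Msh6. The kinase gene Atr had differences of -0.55 in WT and -0.05 in TCF-1 cKO between stages, and Rad50 of -1.16 and -0.14. All 6 B cell markers were lower and 11 of 12 proliferation genes and all 7 T cell genes higher post-transplant in both genotypes; their part in the repair gene differences was not tested.

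**Figure D5:**
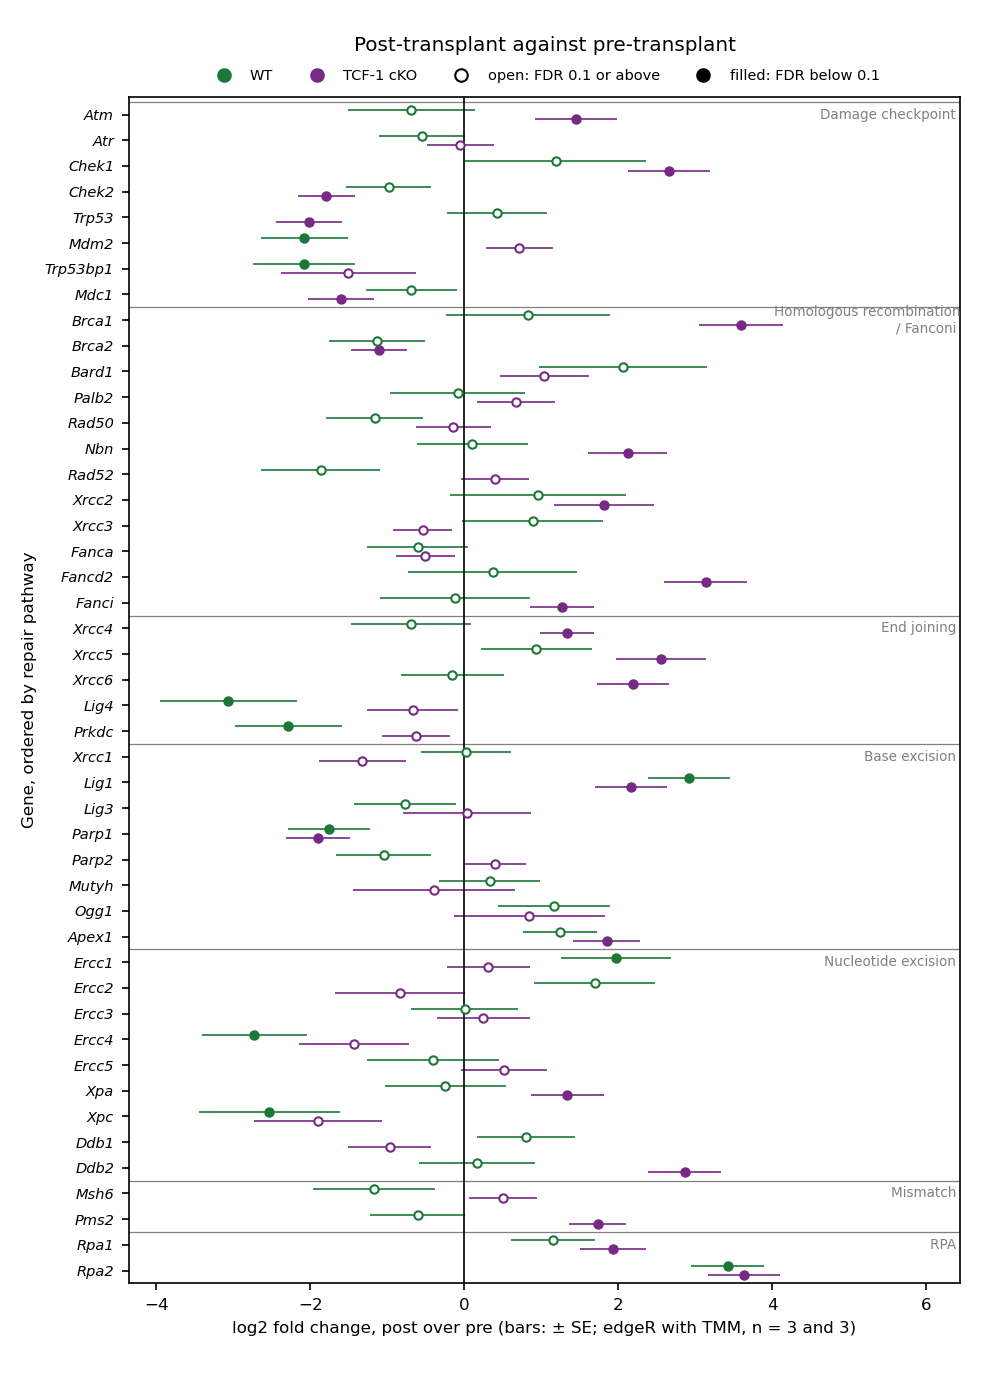
Log2 fold change of post-transplant over pre-transplant for each of the 46 genes in WT (green) and TCF-1 cKO (purple), with TMM scaling; bars are 1 SE on each side, n = 3 and 3, and filled points have an FDR below 0.1. Rpa2, at 3.42 and 3.63, and Lig1, at 2.92 and 2.16, are filled above 0 in both genotypes, and Parp1, at -1.76 and -1.90, is filled below 0 in both.

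Of the 78 further repair genes, 10 were higher and 4 lower post-transplant in WT (9.7% and 10.3% of all genes), and 33 higher and 6 lower in TCF-1 cKO (19.7% and 16.8%). On library totals these counts were 4 and 16 in WT, and 16 and 37 in TCF-1 cKO. Rpa3, the small RPA subunit, was at 161, 55.5 and 380 CPM post-transplant against 19.9, 5.55 and 14.8 CPM pre-transplant in WT (log2 fold change 3.61, SE 0.79, adjusted p = 0.0145). In TCF-1 cKO it was at 552, 485 and 668 CPM against 6.77, 6.37 and 3.94 CPM (6.63, SE 0.46, adjusted p = 0.000105). With Rpa1 and Rpa2 it completes the RPA trimer, and Rpa1 rose by 1.94 in TCF-1 cKO (SE 0.43, adjusted p = 0.00862) and had a difference of 1.15 in WT (SE 0.54, adjusted p = 0.195). Fen1, the flap endonuclease of replication and base excision, rose by 2.67 in WT (SE 0.55, adjusted p = 0.0114).

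Promoter sequence was available from RefSeq (GRCm38.p6) for 38 of the 46 genes. Rpa2 and Lig1 are shown because they were higher post-transplant in both genotypes, and Mdm2 because its genotype difference had opposite signs pre- and post-transplant. Opposite signs were not particular to Mdm2: both mismatch repair genes also went from below 0 to above 0. The rule first set, the smallest p in WT between stages and Mdm2, would also have shown Ercc4 and Lig4. After values were seen, Xrcc6 and Bard1 took their place: Xrcc6 had opposite signs too, and Bard1 alone held both motifs searched. Each is the 250 bases before the start annotated in RefSeq, 5′ to 3′ on the strand of the gene. Capitals mark a match, on either strand, to TTTGGCGC, TTTCGCGC, TTTGCCGC or TTTCCCGC (forms of the E2F motif of cell-cycle genes) or to CTTTGAT or CTTTGAA (forms of the TCF/LEF motif).

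Rpa2, chr4:132768110-132768359, plus strand: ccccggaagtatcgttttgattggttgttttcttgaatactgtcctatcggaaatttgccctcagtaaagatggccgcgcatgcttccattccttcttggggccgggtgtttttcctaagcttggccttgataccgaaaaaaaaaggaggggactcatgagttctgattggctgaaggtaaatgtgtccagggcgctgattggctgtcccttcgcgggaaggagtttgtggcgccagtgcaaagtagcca
Lig1, chr7:13276925-13277174, plus strand: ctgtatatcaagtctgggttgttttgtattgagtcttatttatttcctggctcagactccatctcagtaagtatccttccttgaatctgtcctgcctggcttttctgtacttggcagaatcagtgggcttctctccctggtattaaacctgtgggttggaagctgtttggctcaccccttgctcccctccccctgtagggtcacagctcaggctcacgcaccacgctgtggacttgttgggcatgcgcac
Mdm2, chr10:117710759-117711008, minus strand: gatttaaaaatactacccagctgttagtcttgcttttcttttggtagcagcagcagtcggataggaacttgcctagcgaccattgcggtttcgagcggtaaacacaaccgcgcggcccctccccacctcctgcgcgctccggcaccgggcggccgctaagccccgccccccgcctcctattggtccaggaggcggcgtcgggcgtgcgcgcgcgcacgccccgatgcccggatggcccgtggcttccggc
Xrcc6, chr15:82016119-82016368, plus strand: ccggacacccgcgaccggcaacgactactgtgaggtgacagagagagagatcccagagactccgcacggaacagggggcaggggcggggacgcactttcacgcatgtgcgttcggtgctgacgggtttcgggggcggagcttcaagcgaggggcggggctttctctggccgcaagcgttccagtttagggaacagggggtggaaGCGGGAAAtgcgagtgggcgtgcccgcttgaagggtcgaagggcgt
Bard1, chr1:71102973-71103222, minus strand: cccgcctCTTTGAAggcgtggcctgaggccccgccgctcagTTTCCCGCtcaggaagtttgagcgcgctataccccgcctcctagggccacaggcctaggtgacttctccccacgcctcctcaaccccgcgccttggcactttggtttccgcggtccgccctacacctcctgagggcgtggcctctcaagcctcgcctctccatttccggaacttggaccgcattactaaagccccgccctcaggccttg

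An E2F form was found in 5 of the 38 promoters (13.2%), those of Bard1, Brca2, Chek2, Mdc1 and Xrcc6, and in 1.91% of 27025 promoters of the same length. The match in Xrcc6 starts 46 bases and that in Bard1 209 bases before the RefSeq start. In the GENCODE M21 annotation used for the counts, Xrcc6 starts further upstream, at chr15:81987835. Its window therefore lies inside the gene as counted, and the Bard1 and Rpa2 windows overlap theirs in part. A TCF/LEF form was found in 2 of the 38 (5.26%), those of Bard1 and Ercc1, and in 7.67% of all promoters. The Rpa2, Lig1 and Mdm2 windows held none of these letters, nor did those of Ercc4 and Lig4, which are not shown.

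Whether the genotype difference itself changed with transplant was tested as an interaction over the 12 libraries. None of the 46 genes passed an FDR of 0.1, where 0.00465% of 21526 genes did. At an unadjusted p below 0.05 there were 8 of the 46 genes and 15.7% of all genes; the DESeq2 Wald test called 4 (7.96% of all) and limma-voom none (0.00465%). After Mdm2, the smallest p-values belonged to Trp53 (-2.67, SE 0.83, adjusted p = 0.234), Pms2 (2.11, SE 0.69, adjusted p = 0.238) and Ddb2 (2.46, SE 0.94, adjusted p = 0.258). All 5 end joining genes among the 46 had a positive interaction (median 1.73, from 1.33 to 2.14). All 5 stayed positive with the GC trend removed (median 1.32) and on library totals (median 1.21). The 10 further end joining genes, outside the 46, had a median interaction of -0.52, so the positive sign did not extend to the wider pathway list. Across the 46 genes, the Spearman correlation between GC content and the interaction was -0.594. Without the third library labelled WT post-transplant 9 of the 46 genes were called, 6 higher and 3 lower, with 8.73% of all genes (5.48% and 3.25%).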

How the data were processed

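RNA sequencing was analysed in 12 libraries of sorted splenic T cells, 3 per group. The authors quantified transcripts with kallisto (version 0.46.2, per the labels) and deposited estimated counts and TPM per Ensembl transcript; the submitters' notes name mm9 as the genome build, and the transcript release is not given in the sources used here. Deposited estimated counts were summed per gene with GENCODE M21, which held 116374 of 117497 transcripts and 99.5 to 99.7% of the counts, and rounded to whole numbers. Deposited TPM values were summed per gene for levels and for 1 alternative. Each comparison was fitted on its own 6 libraries with edgeR (version 4.0.16; TMM, filterByExpr, quasi-likelihood F test), and the interaction on all 12. P-values were adjusted by Benjamini-Hochberg over all genes tested, with a threshold of 0.1 as in the study's methods. The GC trend of each library was a loess curve (span 0.4, degree 2) of log2 counts on transcript GC content, used as an offset. The SE is the log2 fold change divided by the square root of F. Plotted and printed CPM use TMM over 12 libraries. An exact permutation test of 3 against 3 libraries cannot go below p = 0.1 and is not quoted. Fits were tested on simulated data. The cDNA kits named in the labels do not mark strand, so reads of overlapping, antisense or near-identical genes may be shared. Alternatives were DESeq2 (version 1.42.0), limma (version 3.58.1), other scalings and filters, trends, blocks and leaving out each library.

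Members and lists were chosen with earlier results of these data known. Every member could be named; values per library are given for those past the FDR (the 8 with the smallest p where more passed) and the leader of each pathway, and of other lists up to 5 genes per comparison were eligible, besides Tcf7, Cd8a, Cd4, Mki67 and Cdkn1a. Non-coding transcripts, thinned counts and a least-squares GC trend were examined after the data were seen. Promoters not held in the RefSeq table were those of Rad50, Nbn, Xrcc2, Fancd2, Prkdc, Ercc3, Xpc and Ddb2.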

Additional observations from a re-analysis of the deposited data

Results flagged for a closer look

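Mdm2 differed between genotypes in opposite directions before and after transplant. Pre-transplant all 3 TCF-1 cKO libraries (27.7, 27.7 and 36.2 CPM) lay below all 3 WT libraries (55.4, 43.1 and 61.9 CPM), a log2 difference of -0.59. Post-transplant all TCF-1 cKO libraries lay above WT, a log2 difference of 1.48. Of all genes, 14.2% were lower without overlap pre-transplant and 23.4% higher without overlap post-transplant. The interaction was 2.53 (SE 0.71) and did not pass the FDR over all genes (adjusted p = 0.233, edgeR).

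Xrcc6 showed the same arrangement with TMM scaling. It was at 28.5, 10.3 and 30.5 CPM in TCF-1 cKO against 38.5, 41.6 and 53.7 CPM in WT pre-transplant (log2 difference -0.76), and at 127, 108 and 83 CPM against 73.3, 12.6 and 52.8 CPM post-transplant (0.91). Without TMM scaling (factors 1.55 to 2.31 in TCF-1 cKO and 1.23 to 1.51 in WT pre-transplant), its pre-transplant groups overlapped. The interaction was 2.14 (SE 0.83) and did not pass (adjusted p = 0.263).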

How the results depend on the processing

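Calls among the 46 genes moved with the test, the scaling and single libraries, and the causes were not tested. Pre-transplant, 0 genes called became 2 with no filter, 2 with the DESeq2 Wald test and 13 with limma-voom quality weights; leaving out 1 library gave 0 to 6 (6 without TCF-1 cKO library 3). The median of -0.56 became -0.24 on library totals, -0.85 with no filter, -0.24 on log2(TPM + 1), -0.32 with GC and length trends removed and -0.29 in thinned counts. Post-transplant, 7 calls became 15 with DESeq2, 26 with quality weights, 12 on log2(TPM + 1) and 11 in one fit over 12 libraries; 2 were called with the GC trend, GC and length trends, or a least-squares GC trend removed; leaving out 1 library gave 0 to 17. The median of -0.01 became -0.40 with quality weights, -0.59 and -0.60 with GC, and GC and length, removed and -0.57 by least squares, and ranged from -0.32 to 0.18 without 1 library. In WT, 10 calls between stages became 18 on library totals, 19 with quality weights, 22 on log2(TPM + 1), 5 at an FDR of 0.05 and 3 to 14 without 1 library (5 and 4 without the first and second post-transplant, 3 without pre-transplant library 1 or 3). The median of -0.14 became -1.05 on library totals and -1.19 on log2(TPM + 1). In TCF-1 cKO, the median of 0.45 became -1.16, 0.79, -1.34, 0.25 and 0.17 on library totals, with quality weights, on log2(TPM + 1), with counts scaled from TPM and thinned, and ranged from 0.28 to 0.87 without 1 library; calls then ranged from 18 to 23. The interaction gave 1 call with no filter, 4 with DESeq2, 10 with quality weights and 0 to 9 without 1 library.

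Same-numbered libraries did not deviate together (correlations of deviations from -0.106 to 0.115), so the numbers were not taken as pairs. With the replicate number as a block, calls were 0 pre-transplant, 7 post-transplant, 8 in WT and 18 in TCF-1 cKO; with block and GC trend removed, post-transplant calls were 0 and the median -0.56, and no other count moved by over 1.5 times.

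Among the genes given with values per library and the alternatives tabulated for them, 6 values reversed: Msh6 pre-transplant (0.080 on log2(TPM + 1), and -0.98 to 0.61 without 1 library, the highest without the first WT library), Msh6 in WT between stages (-1.58 to 0.033 without 1 library, the highest without the first pre-transplant library), Brca1 (-0.34) and Chek1 (-0.18) in TCF-1 cKO between stages on log2(TPM + 1), and Chek2 there over coding transcripts (0.69). Outside that set, Brca2 changed sign there too over coding transcripts (1.36), and on library totals the genes above 0 fell from 28 to 13 of 46. Of the other values in the set, 767 kept direction and side of the threshold, 100 fell short of it and 39 crossed it. The depth of the TCF-1 cKO pre-transplant libraries limits genes at a few CPM.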
